A study of Mus musculus with 12 samples.

Results

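Cells of the deposited expression cluster 5 were examined in the 2 libraries of precursor exhausted T cells (Tpex) of a study of CD137 treatment. The members were all cells of the authors' cell table that came from a Tpex library and carried cluster number 5. They numbered 2240, of 26080 Tpex cells and of 100540 cells in all 6 libraries. The control Tpex library held 408 of them and the anti-CD137 Tpex library 1832. Cluster 1, which held 11253 and 11088 Tpex cells of these libraries, served as the comparison. No values per gene were used here, so the identity of cluster 5 could not be checked against marker genes and it is called by its number.

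Both libraries came from spleens of wild-type C57BL/6 mice. The treated group was 5 mice given 10 µg of clone 3H3, an antibody to CD137, and the control group was 10 mice given 100 µg of clone HRPN, a control immunoglobulin (Ig). Injections were on 2 days a week for 14 days. Tpex were sorted as T cells with high CD44 that were PD1+, Slamf6+ and Tim3-. The other sorted subsets were exhausted T cells (Tex; CD44 high, PD1+, Slamf6-, Tim3+) and effector T cells (Teff; CD44 high, PD1-). The labels tie no cell to a mouse and give 1 library per treatment and subset, and the treatments also differed in dose and in the number of mice. No test between treatments was therefore possible. Shares are given with exact Clopper-Pearson 95% intervals, which cover counting error only, and cells of a clonotype are not independent of each other.

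Precursor exhausted T cells keep the capacity to renew themselves and give rise to exhausted cells under lasting antigen exposure. CD137 is a costimulatory receptor induced on activated T cells. Each T cell rearranges a T cell receptor (TCR) β chain (TRB) and α chain (TRA), and the bases at the joins, inside the third complementarity determining region (CDR3), mark all descendants of that cell. A clonotype here is the pair of nucleotide CDR3s of the TRB and the TRA with the most unique molecular identifiers (UMIs, which count captured molecules) in a cell, and cells with both chains are called paired.

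The clonotypes below are examples: 2 in cluster 5 of the control library and 4 in cluster 5 of the anti-CD137 library. They are among the 5 with the most cluster 5 cells in each. The largest held 1.25% of paired cluster 5 cells in the control and 1.29% after anti-CD137, so the examples do not stand for the cluster. Each CDR3 is written 5′ to 3′ as deposited. Lower case marks bases that match the start of the CDR3 in the named V segment or its end in the J segment, in GENCODE M21 transcripts of GRCm38 (mm10). Capitals mark the bases between them that match neither. The whole CDR3s of both chains, not the capitals alone, define the clonotype.
control TRBV5/TRAV12-3 clonotype, TRB: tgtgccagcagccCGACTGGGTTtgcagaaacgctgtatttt
control TRBV5/TRAV12-3 clonotype, TRA: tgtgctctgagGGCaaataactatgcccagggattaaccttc
control TRBV31/TRAV12D-3 clonotype, TRB: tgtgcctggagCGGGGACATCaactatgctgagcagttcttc
control TRBV31/TRAV12D-3 clonotype, TRA: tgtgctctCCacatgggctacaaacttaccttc
anti-CD137 TRBV29/TRAV8N-2 clonotype, TRB: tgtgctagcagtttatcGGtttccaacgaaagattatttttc
anti-CD137 TRBV29/TRAV8N-2 clonotype, TRA: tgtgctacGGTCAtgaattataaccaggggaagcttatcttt
anti-CD137 TRBV15/TRAV7D-3 clonotype, TRB: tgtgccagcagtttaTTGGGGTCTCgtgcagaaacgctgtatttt
anti-CD137 TRBV15/TRAV7D-3 clonotype, TRA: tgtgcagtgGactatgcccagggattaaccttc
anti-CD137 TRBV13-3/TRAV13-4-DV7 clonotype, TRB: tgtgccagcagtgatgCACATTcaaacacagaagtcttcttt
anti-CD137 TRBV13-3/TRAV13-4-DV7 clonotype, TRA: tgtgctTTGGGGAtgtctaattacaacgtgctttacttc
anti-CD137 TRBV29/TRAV12-2 clonotype, TRB: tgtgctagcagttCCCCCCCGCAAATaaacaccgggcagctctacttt
anti-CD137 TRBV29/TRAV12-2 clonotype, TRA: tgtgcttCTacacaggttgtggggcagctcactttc
The first control clonotype and the last anti-CD137 clonotype were found in both clusters, and the other 4 in cluster 5 and in no cell of cluster 1.

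The first control clonotype had 4 cells in cluster 5 against 729 in cluster 1 and 702 in the control Tex library. Its 4 cluster 5 cells had 3130 to 5964 UMIs, below the cluster 5 median, and 0 of them was labelled S or G2M. The second had 4 cells in cluster 5, 0 in cluster 1 and 1 in the Tex library. All 4 of its cells had more than 1 TRB contig, and the further TRB was the same in all 4. Of these 4 cells, 1 was labelled S or G2M. The other 3 named control clonotypes had 3, 3 and 2 cells in cluster 5, of which 1, 0 and 0 were labelled S or G2M. The clonotype with TRBV12-1 and TRAV12D-3 also had 5 cells in cluster 1, that with TRBV29 and TRAV4N-4 had 0, and that with TRBV12-1 and TRAV10N had 11.

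In the anti-CD137 library the largest clonotype of cluster 5, with TRBV29 and TRAV8N-2, had 8 cells, all labelled S or G2M. It had 0 cells in cluster 1, in Tex and in Teff, and its cells held 2160 to 3182 UMIs. The clonotypes with TRBV15 and TRAV7D-3 and with TRBV13-3 and TRAV13-4-DV7 had 4 cells each in cluster 5, again all labelled S or G2M, and 0 in cluster 1, Tex and Teff. A clonotype with TRBV12-2 and TRAV19 had 4 cells in cluster 5 and 0 in cluster 1, where 1 cell carried its TRB with another TRA. Its 4 cells all had more than 1 TRB contig, and 3 carried the same further TRB CDR3. Of these 4 cells, 2 were labelled S or G2M. The clonotype with TRBV29 and TRAV12-2 had 3 cells in cluster 5, of which 1 was labelled S or G2M, and 11 in cluster 1. Of the 5 named clonotypes, 4 were thus not seen in cluster 1 after anti-CD137, and 2 in the control. Over all cluster 5 clonotypes, 10.1% of 505 were found in cluster 1 after anti-CD137 and 25.3% of 300 in the control. The cluster 1 cells searched numbered 3699 and 8810. The named clonotypes were picked by their cluster 5 cells, so their counts are not a comparison of treatments.

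Cluster 5 made up 3.17% of control Tpex cells (interval 2.87 to 3.49) and 13.9% of anti-CD137 Tpex cells (13.3 to 14.5). The difference between these 2 libraries was 10.7 percentage points (10.0 to 11.4). Over the whole series cluster 5 held 3173 cells, of which 70.6% were Tpex, 28.8% Teff and 0.599% Tex. Total UMIs were 70780078 in the control and 31252414 in the anti-CD137 Tpex library. The lowest UMI count per cell was 2558 in the control and 1472 in the anti-CD137 library, so the 2 cell sets were cut at different depths.

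Cells of cluster 5 held more UMIs than cells of cluster 1 in both libraries. The control median was 8310.5 UMIs (quartiles 5854.5 and 11289.8) against 4615 in cluster 1, a ratio of 1.80. The anti-CD137 median was 2479 (1899 and 3709.75) against 1887, a ratio of 1.31. Genes with a UMI numbered 2679.5 in the median cluster 5 cell and 1828 in the median cluster 1 cell of the control, and 1265 and 1036 after anti-CD137. UMIs from ribosomal protein genes made up a median of 27.7% in cluster 5 and 25.1% in cluster 1 of the control, and 25.7% and 24.0% after anti-CD137. Mitochondrial medians were 1.57% in both control clusters, and 1.43% in cluster 5 against 1.67% in cluster 1 after anti-CD137. As clusters were made from the expression values, these differences between clusters are a description.

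The share of cluster 5 climbed with UMIs per cell in both libraries. In the control it was 0.902% of cells with 2500 to 3000 UMIs, 0.630% from 3000 to 4000, 2.49% from 5000 to 7000 and 15.5% from 10000 up. In the anti-CD137 library it was 7.84% below 2000 UMIs, 18.4% from 2500 to 3000, 42.4% from 5000 to 7000 and 78.6% from 10000 up. The last of these rests on 70 cells. In each of the 6 bins held by both libraries the anti-CD137 share was the higher, with intervals apart. Restricted to cells with at least 2558 UMIs, the anti-CD137 share was 26.8%, and 51.9% of its cluster 5 cells fell below that floor.

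**Figure D1:**
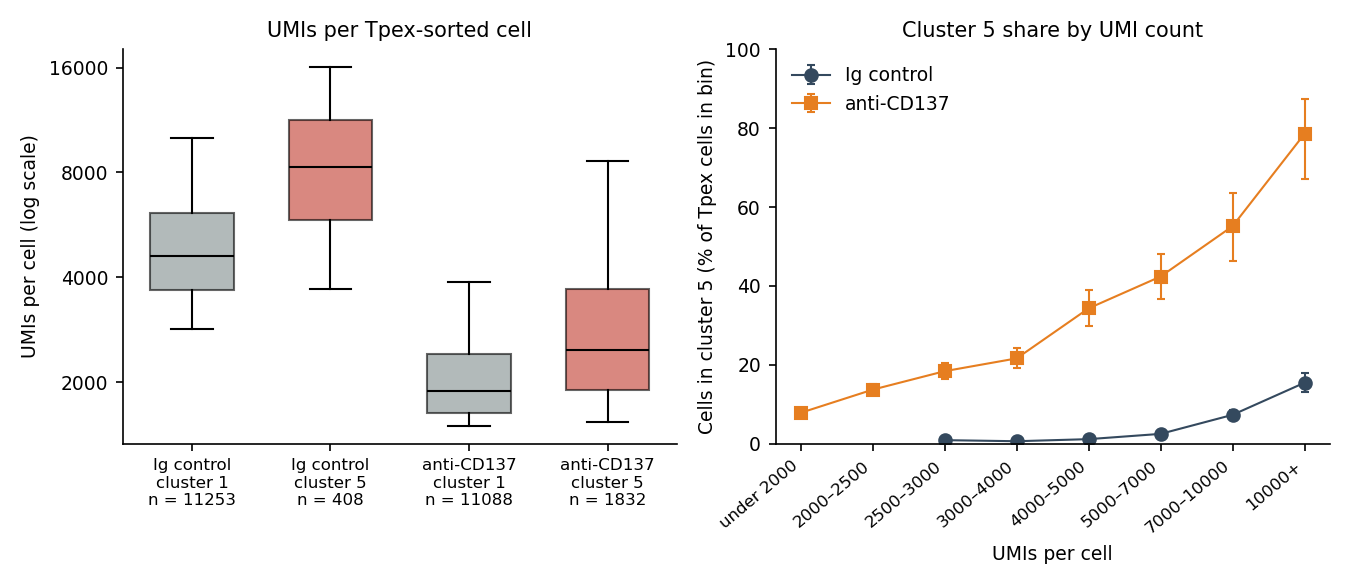
Left, UMIs per cell on a log axis for clusters 1 and 5 of each Tpex library; boxes span the quartiles, lines mark medians and whiskers the 5th and 95th percentiles over cells. Right, the share of Tpex cells in cluster 5 by UMIs per cell with exact 95% intervals; the anti-CD137 points lie above the control points in every shared bin, and both sets climb to their highest value (15.5% and 78.6%) from 10000 UMIs up.

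The deposited phase labels followed the signs of the 2 deposited cell cycle scores: all 100540 cells were labelled G1 exactly where both scores were below 0. In the control, 19.9% of cluster 5 cells were labelled S and 12.5% G2M, against 9.74% and 8.30% of cluster 1. S and G2M together came to 32.4% (27.8 to 37.1) against 18.0%, a difference of 14.3 percentage points (9.74 to 19.1). After anti-CD137, 37.8% of cluster 5 cells were labelled S and 28.3% G2M, against 12.3% and 19.1% of cluster 1. Together these were 66.0% (63.8 to 68.2) against 31.4%, a difference of 34.7 points (32.3 to 37.0). The median S score of cluster 5 was -0.0896 in the control and 0.0048 after anti-CD137, and the median G2M score was -0.096 and -0.0103.

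UMIs per cell moved with these labels, so the clusters were also compared within bins of UMIs. In the control, 17.9% of cluster 5 and 14.7% of cluster 1 cells were labelled S or G2M from 5000 to 7000 UMIs. From 7000 to 10000 UMIs the shares were 24.6% and 25.1%, and from 10000 up they were 54.6% and 48.4%. With the bins of cluster 1 weighted to the cells of cluster 5, the control difference was 3.04 points, and the intervals were apart in 0 of 5 bins. The control difference was thus small among cells of like depth. After anti-CD137, 57.7% of cluster 5 and 32.7% of cluster 1 cells were labelled S or G2M below 2000 UMIs, and 79.7% and 47.3% from 5000 to 7000. The weighted difference was 32.7 points, and cluster 5 was higher with intervals apart in 7 of 7 bins. Scores depend on depth and could not be recomputed at a common depth without gene values, so the phases are not compared between treatments and no cycling is read from them.

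**Figure D2:**
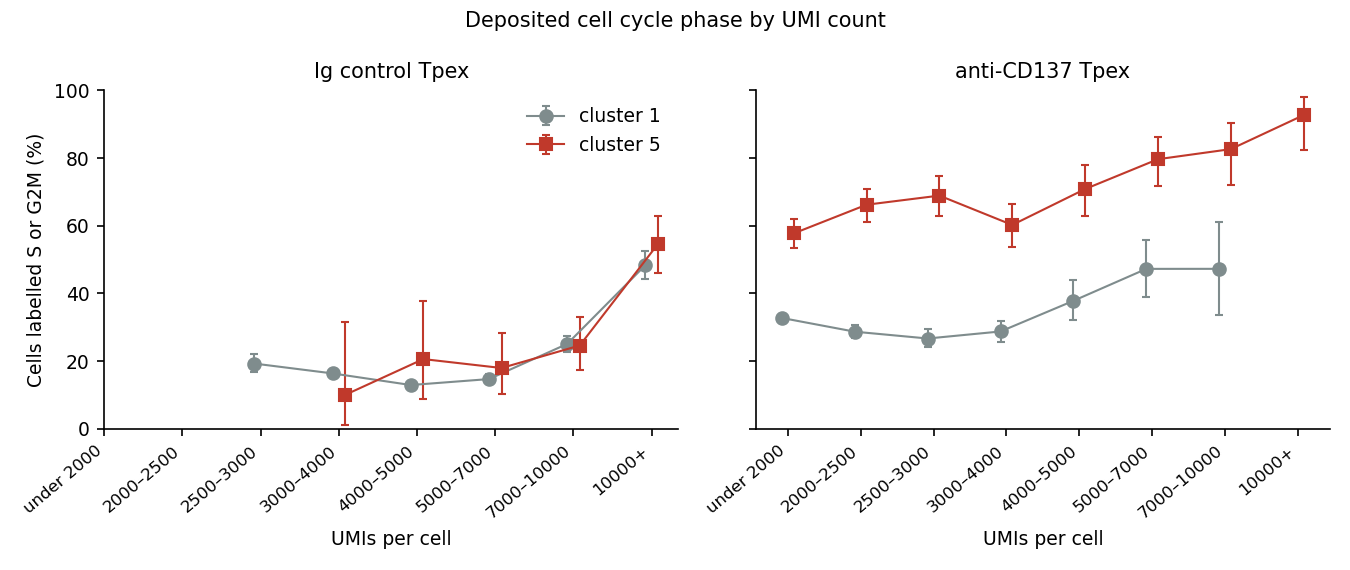
Share of cells labelled S or G2M (vertical axis, %) by UMIs per cell for clusters 1 and 5 of each Tpex library, with exact 95% intervals and bins of at least 20 cells. In the control the intervals of the 2 clusters overlap in every shared bin; after anti-CD137 cluster 5 lies above cluster 1 in all 7 shared bins.

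TCR chains were recovered about equally in clusters 5 and 1 of the same library over all depths, and far less often after anti-CD137. In the control, 78.7% of cluster 5 cells (74.4 to 82.6; 321 cells) and 78.3% of cluster 1 cells were paired. After anti-CD137 the shares were 33.8% (31.6 to 36.0; 619 cells) and 33.4%, and 55.3% of cluster 5 cells had no chain. The difference of cluster 5 from cluster 1 was 0.386 points (-3.98 to 4.34) in the control and 0.428 points (-1.91 to 2.81) after anti-CD137. Recovery ran differently along depth. From 10000 UMIs up, 78.7% of control cluster 5 cells were paired against 61.5% of cluster 1 cells, and from 7000 to 10000 UMIs after anti-CD137 66.7% against 25.5%. Below 2000 UMIs after anti-CD137 the order was the other way, 18.8% against 27.9%. So it was from 3000 to 4000 UMIs in the control, at 60.0% against 78.5%, with overlapping intervals. Cluster 5 had the higher paired share in 2 of 5 control bins and in 3 of 7 anti-CD137 bins. With cluster 1 weighted to the UMI bins of cluster 5 the paired difference was 7.56 points in the control and -3.47 after anti-CD137.

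The median paired cluster 5 cell had 20 TRB and 7 TRA UMIs in the control, against 15 and 5 in cluster 1. After anti-CD137 it had 7 and 3, against 6 and 2. Per 1000 UMIs of the cell the order was reversed, at 2.41 TRB UMIs in cluster 5 and 3.03 in cluster 1 of the control, and 1.92 and 2.90 after anti-CD137. A single UMI stood behind the TRA of 22.0% of paired anti-CD137 cluster 5 cells and of 1.25% of control ones. Cells sharing a TRB with a cluster 5 cell had the same TRA in 82.4% of cases in the control and in 44.2% after anti-CD137 (92.1% and 40.1% for cluster 1). Why cells with 1 TRB carried different TRAs was not tested. Values for TRB alone are given beside those for both chains.

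More than 1 TRB contig was found in 9.03% of paired control cluster 5 cells (6.13 to 12.7) and in 24.2% of anti-CD137 ones (20.9 to 27.8). Cluster 1 of the same libraries stood at 7.15% and 24.1%. With a further TRB of at least 5 UMIs the cluster 5 shares were 7.79% (5.10 to 11.3) and 6.95% (5.07 to 9.24), and those of cluster 1 6.19% and 7.19%. The higher anti-CD137 share was thus not seen among further TRBs of that size. The cutoff was stricter after anti-CD137, so it cannot show that the libraries were alike. The main TRB of paired cluster 5 cells had a median of 7 UMIs there (lower quartile 4), against 20 (13) in the control. Without the cutoff, the difference from cluster 1 was 1.88 points (-1.07 to 5.60) in the control and 0.0910 points (-3.52 to 3.92) after anti-CD137. More than 1 TRA was found in 14.0% and 18.6% of paired cluster 5 cells, against 10.6% and 16.8% of cluster 1. Control cluster 5 cells with more than 1 TRB had a median of 11488 UMIs against 8282 for those with 1, and anti-CD137 ones 3210 against 3022. Such cells can be doublets, and their part in the results was not tested beyond leaving them out. Of barcodes, 45 of 408 control and 196 of 1832 anti-CD137 cluster 5 cells recurred in another library (11.0% and 10.7%), close to 11.7% and 11.8% in cluster 1. Over all libraries 1 barcode recurred together with both of its CDR3s.

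Cluster 5 held few cells per clonotype in both libraries. In the control the 321 paired cluster 5 cells held 300 clonotypes, 93.5 per 100 cells, and the largest had 4 cells. Cluster 1 held 52.6 clonotypes per 100 cells, and its largest had 769. After anti-CD137 the 619 paired cluster 5 cells held 505 clonotypes, 81.6 per 100 cells against 81.1 in cluster 1, and the largest had 8 cells against 45. These ratios fall with the number of cells, which differed.

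The expanded share of cluster 5 lay below that of cluster 1 in the control and above it after anti-CD137. Expanded clonotypes, those with at least 2 cells in the library, held 32.4% of control cluster 5 cells (27.3 to 37.8) and 58.4% of cluster 1 cells. The difference was -26.0 points (-31.2 to -20.5), and -15.6 points without the 10 largest clonotypes. After anti-CD137 the shares were 38.3% (34.4 to 42.2) and 31.0%, a difference of 7.33 points (3.20 to 11.6). By TRB alone they were 69.0% and 60.3%. In cells with 5 or more TRB UMIs and 3 or more TRA UMIs the anti-CD137 difference was 2.39 points (-4.13 to 9.23), an interval that includes 0.

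Cells of cluster 5 shared their clonotype with cluster 1 less often than cells of cluster 1 did with each other, in both libraries. In the control 27.7% of paired cluster 5 cells (22.9 to 33.0; 89 cells) had a clonotype also in cluster 1, against 57.6% of cluster 1 cells. The difference was -29.8 points (-34.8 to -24.5), and -19.3 without the 10 largest clonotypes. After anti-CD137 the shares were 11.1% (8.78 to 13.9; 69 cells) and 30.0%, a difference of -18.8 points (-21.6 to -15.7). The intervals left out 0 in each library under every alternative run for this difference. Between treatments the picture depended on the definition. By TRB alone 31.8% of control (26.7 to 37.2) and 31.5% of anti-CD137 cluster 5 cells (27.9 to 35.3) had a match in cluster 1. Thinned to the 3699 paired cluster 1 cells of the anti-CD137 library, the control share was 20.3% for both chains and 23.5% for TRB alone. At that search size the control share was thus the higher for both chains and the lower for TRB alone.

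Within cluster 5 the control share was the lower one by both definitions. Only 11.2% of control cluster 5 cells (7.98 to 15.2; 36 cells) had a further cell of their clonotype in cluster 5. Cluster 1 cells searched among as many cluster 1 cells reached 26.4%. After anti-CD137, 31.7% of cluster 5 cells (28.0 to 35.5; 196 cells) had a further cell in cluster 5, against 10.1% for cluster 1 at the same number. By TRB alone the values were 11.8% against 27.0% in the control and 53.3% against 20.8% after anti-CD137. Anti-CD137 cluster 5 held 619 paired cells to 321, so its search was the deeper one.

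Pairs of cells give a measure that does not depend on the number of cells. After anti-CD137, 85.7 of 100000 pairs of cluster 5 cells shared a clonotype, against 36.8 of pairs in cluster 1 and 7.42 of pairs across the clusters. Without the 10 largest clonotypes the 3 rates were 72.6, 13.0 and 5.61. By TRB alone they were 173, 60.9 and 22.9. In the control the rates were 56.5 within cluster 5, 1510 within cluster 1 and 116 across. Without the 10 largest control clonotypes they were 46.2, 33.2 and 15.5. With the 10 largest clonotypes of each library set aside, pairs within a cluster matched more often than pairs across clusters in both libraries. In the control this rests on 23 matching pairs within cluster 5, and the step kept 316 of its 321 paired cells. Over all control cells the rate within cluster 5 (56.5) was below that across (116). The sources used here do not give whether TCR genes entered the authors' clustering, and their part in these rates was not tested.

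**Figure D3:**
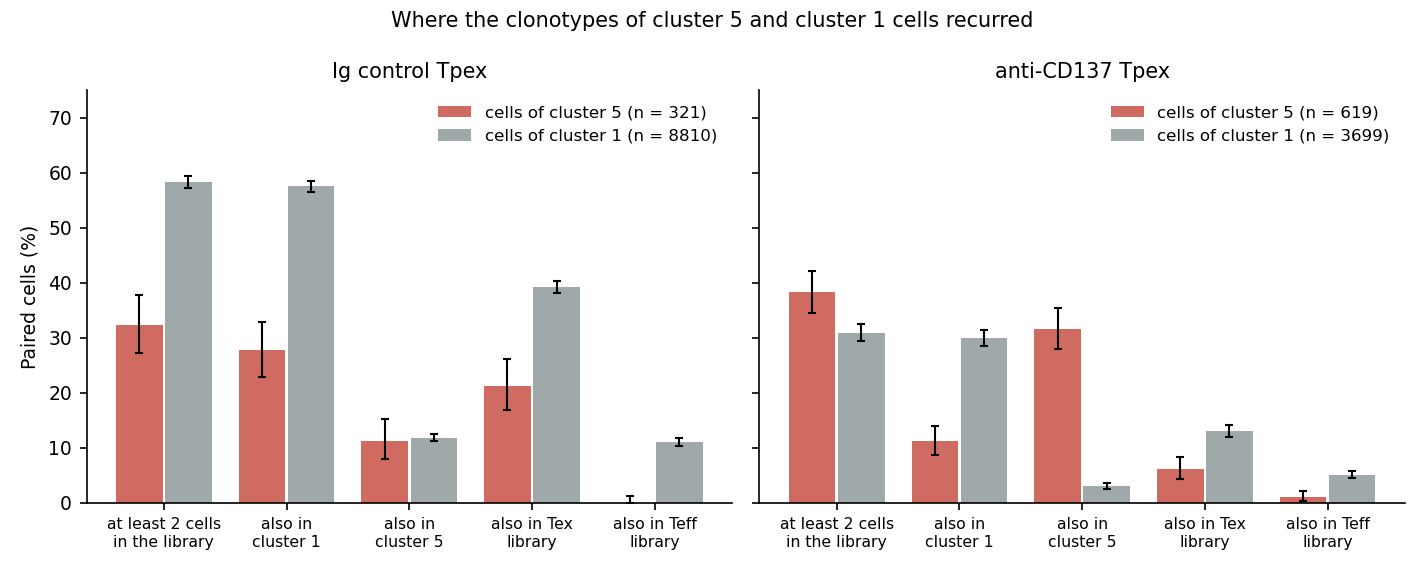
Share of paired cells (vertical axis, %) of cluster 5 and cluster 1 whose clonotype had at least 2 cells in the library or was also found in cluster 1, cluster 5, Tex or Teff of the same treatment, not counting the cell itself; bars show shares and lines exact 95% intervals. Cluster 5 lies below cluster 1 for matches in cluster 1, Tex and Teff in both libraries. For matches in cluster 5 it lies above cluster 1 after anti-CD137 (31.7% against 3.05%), and the control shares were 11.2% and 11.9%. These set a search within a cluster against one across clusters. Searched among as many cells of their own cluster, anti-CD137 cluster 1 cells reached 10.1%.

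Counted by clonotype, 932 clonotypes of the control had at least 2 paired cells in clusters 1 and 5 together. Of these 5 were found in cluster 5 alone, 851 in cluster 1 alone and 76 in both. After anti-CD137 there were 501, with 68 in cluster 5 alone, 382 in cluster 1 alone and 51 in both. The 68 held 164 cluster 5 cells, and the 5 control ones held 13. Clonotypes of at least 10 cells numbered 52 in the control, where cluster 5 held 0.677% of their cells and 41 had 0 there. After anti-CD137 there were 6 such clonotypes, 4 with 0 cells in cluster 5. The cluster 5 share of single clonotypes of this size ran up to 16.7% in the control and 21.4% after anti-CD137. Cells in other clusters and in Tex are not part of these counts.

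**Figure D4:**
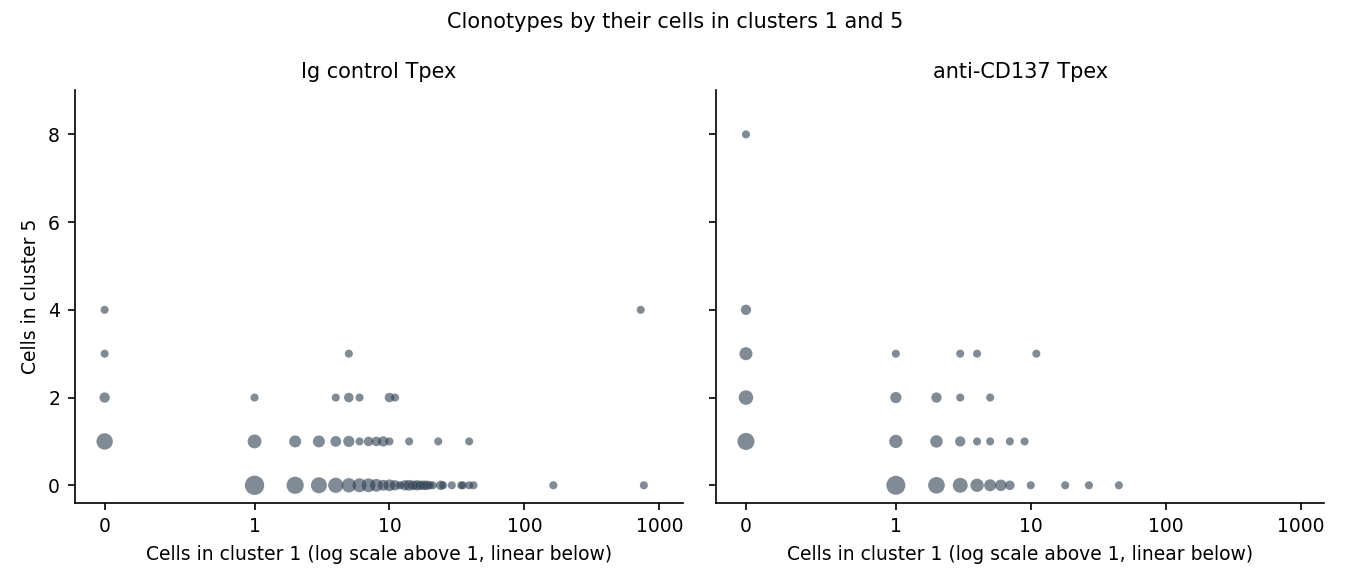
Each point is a combination of cells in cluster 1 (horizontal, log scale above 1) and in cluster 5 (vertical), and its area grows with the number of clonotypes there. After anti-CD137 clonotypes of up to 8 cluster 5 cells stand at 0 cells in cluster 1, and in the control the clonotype of 729 cluster 1 cells has 4 in cluster 5.

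Cells of cluster 5 differed among themselves by where their clonotype recurred. In the control, 21.3% of those with a match in cluster 1 (13.4 to 31.3; 89 cells) were labelled S or G2M, against 38.4% of those without (32.1 to 45.0; 232 cells). Their median UMIs were 8308 and 8491.5. After anti-CD137 the shares were 60.9% (48.4 to 72.4) and 69.8% (65.8 to 73.6), with overlapping intervals. Anti-CD137 cells of clonotypes that recurred in cluster 5 and not in cluster 1 were labelled S or G2M in 84.8% of 164 cells (78.3 to 89.9). Cells alone in their clonotype stood at 63.5% of 386 (58.4 to 68.3). In the control the order was the other way, at 7.69% of 13 cells (0.195 to 36.0) against 40.2% of 219 (33.6 to 47.0), with overlapping intervals. Those 13 cells belonged to only 5 clonotypes. The recurring anti-CD137 cells also held more UMIs than the others, with a median of 3679 against 2892, and the part of depth in the difference was not tested. More than 1 TRB was found in 15.9% of anti-CD137 cluster 5 cells with a match in cluster 1 (8.24 to 26.7) and in 25.3% of those without (21.7 to 29.1). In the control the shares were 3.37% (0.701 to 9.54) and 11.2% (7.45 to 16.0). The intervals overlapped in both libraries.

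Matches of cluster 5 with the other subsets were fewer than those of cluster 1. In the Tex library of the same treatment, 21.2% of control cluster 5 cells (16.8 to 26.1; 68 cells) had their clonotype, against 39.3% of cluster 1. All 68 had a match in Tex cluster 3, and 23 also in Tex cluster 4. Tex cluster 3 held 7000 of the 7778 paired control Tex cells. Of the 3458 control cluster 1 cells with a match in Tex, 3372 had one in Tex cluster 3. The difference of -18.1 points (-22.5 to -13.1) was -12.3 without the largest clonotype and -2.57 (-6.95 to 2.37) without the 10 largest. It thus rested on large control clonotypes. After anti-CD137, 6.14% of cluster 5 cells (4.38 to 8.33; 38 cells) and 13.1% of cluster 1 cells had a match in Tex, and 17.4% and 24.2% by TRB alone. The difference was -6.92 points (-9.01 to -4.48).

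In Teff, 0 of 321 control cluster 5 cells had their clonotype, which allows a share of up to 0.935%, against 11.0% of cluster 1 cells. Of the 973 cluster 1 cells with a match, 890 had it in Teff cluster 6. The difference of -11.0 points (-11.7 to -9.73) was -2.54 (-2.90 to -1.35) without the largest control clonotype and -2.95 without the 10 largest, so most of it rested on 1 clonotype. By TRB alone 5 cells matched, or 1.56%. After anti-CD137 there were 6 cells, 0.969% (0.357 to 2.10), against 5.11% of cluster 1. That difference was -4.14 points (-5.12 to -2.82), and -2.24 (-3.07 to -1.02) without the 10 largest clonotypes. The Teff libraries held 300 and 445 paired cells of cluster 5 in the control and after anti-CD137. The Tpex cells of cluster 5 matched 0 of them by both chains, which allows up to 0.935% and 0.485%, and 0 by TRB alone. Cluster 1 cells matched them in 1 of 8810 cells in the control and in 45 of 3699 (1.22%) after anti-CD137. In the control such matches were thus near 0 in both clusters. The largest cluster 1 clonotype after anti-CD137 also held 45 cells, so the matches there may be those of 1 clonotype. In Tpex of the other treatment 0 cluster 5 cells of either library had their clonotype, and 1 cluster 1 cell of each did.

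V segments were compared between clusters 5 and 1 where they reached 1% of paired cells in either, and called where the intervals were apart and the ratio was at least 1.5. In the control 6 of 63 segments were called, 9.52%, and after anti-CD137 4 of 60, 6.67%. After anti-CD137, TRBV15 (chr6:41141188-41141658, GRCm38) was used by 8.72% of cluster 5 cells (6.62 to 11.2) and 4.08% of cluster 1 cells. Counted once per clonotype it was 8.12% (5.89 to 10.9) against 3.87%, the only call of the 10 in both libraries whose intervals were then apart. TRAV19 (chr14:53845234-53845827) stood at 2.75% against 0.946% and TRAV6-1 (chr14:52638515-52638962) at 1.78% against 0.406%. TRBV17 (chr6:41163062-41163556) was lower, at 1.78% against 4.46%, where the largest cluster 1 clonotype held 45 cells.

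In the control, TRBV17 was higher in cluster 5, at 4.05% (2.17 to 6.83) against 1.74%, and TRAV13-2 (chr14:53634829-53635399) at 3.12% against 0.931%. The 4 segments lower in cluster 5 were TRAV6-7-DV9, TRAV12-3, TRBV2 and TRBV5. They were those of the 2 largest cluster 1 clonotypes, of 769 and 729 cells. Counted once per clonotype, 1 of these 4 kept its direction, and TRBV5 stood at 6.33% in cluster 5 against 3.69% in cluster 1. The TRBV17 shares by clonotype were 4.0% and 2.76%, with overlapping intervals. Counted this way 1 control segment was called that is not among the 6: TRBV13-3 (chr6:41130147-41130585), named after its values were seen, at 2.0% (0.737 to 4.30) in cluster 5 against 5.50%. The CDR3 of the TRB had a median of 14 residues in both clusters of both libraries, and so had that of the TRA.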

How the data were processed

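Single-cell 5′ gene expression and TCR libraries were used from sorted Tpex, with the Tex and Teff libraries searched for their clonotypes. Cell Ranger 3.0.2, Seurat 4.0.0 and the build mm10 are credited to the submitters' processing notes, which were used without settings. Per the file headers, the deposited cell table gives the count of UMIs and of genes per cell, the percent of mitochondrial and ribosomal UMIs, 2 cell cycle scores, a phase and a cluster. The deposited TCR table gives, per contig, the chain, segments, CDR3 and its count of UMIs and reads. The sources used here do not say how the authors handled doublets, and no caller was run because no gene values were used.

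Contigs and cells were matched on library and barcode. Shares have exact intervals, and differences Newcombe's square-and-add intervals on them, at 95%. Beside a share of 0 stands the limit that 3 counts would give. No test was run, since each group is 1 library. Thinned shares are expected values of drawing without replacement. Bins with under 20 cells were left out of comparisons. The thinning, pair and segment calculations were tested on simulated data. Named clonotypes were the 5 with the most cluster 5 cells of each library, and called V segments were named up to 5 per direction by ratio. The members, lists and rules were chosen with earlier results of these data known. Alternatives that compare cluster 5 minus cluster 1, weight cluster 1 to UMI bins or leave out the 10 largest clonotypes were added after seeing the data. Python 3.11.15, numpy 2.4.6, pandas 2.3.3, scipy 1.17.1 and matplotlib 3.10.9 were used.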

Additional observations from a re-analysis of the deposited data

Results flagged for a closer look

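The expanded share of cluster 5 minus that of cluster 1 had opposite signs in the 2 libraries: -26.0 percentage points in the control and 7.33 after anti-CD137 by both chains, and -23.7 and 8.64 by TRB alone. The ratio of TRBV17 use in cluster 5 to that in cluster 1 was 2.33 in the control and 0.398 after anti-CD137. Counted once per clonotype the ratios were 1.45 and 0.599, with overlapping intervals in both libraries. With 1 library per treatment these differences between treatments were not tested.

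TCR barcodes outside the cell table were used in no comparison above. They made up 66.6% of Tpex TRB barcodes after anti-CD137 and 14.0% in the control. A TRB found in cluster 5 and not in cluster 1 was carried by 1.29% of them after anti-CD137 (1.09 to 1.51) and by 0.381% in the control (0.153 to 0.783), and a TRB found in cluster 1 and not in cluster 5 by 37.1% and 46.9%. Per TRB, these were 0.519 outside barcodes for cluster 5 and 1.77 for cluster 1 after anti-CD137, and 0.0304 and 0.181 in the control.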

How the results depend on the processing

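Of 140 alternatives, 92 moved a value by less than its counting interval or, for counts, by less than 1.5 times. The other 48 moved it by more, and none changed the sign of a difference. Some of the 92 could not move. The UMI floor was the lowest control count, so it left all control values as they were. Thinning to the smaller library left the anti-CD137 values as they were. The count of 92 is thus not a measure of robustness. No paired analysis was possible because the labels carry no replicate numbers and each group is 1 library. Values are given as control, then anti-CD137, where 2 are given. Over UMI bins held by both libraries the cluster 5 share was 2.83% and 35.4%, the S or G2M share 24.5% and 76.3%, and the paired share 74.7% and 51.3%. With each clonotype counted once the control share of cluster 5 was 5.32%, and 1 V segment was called in each library (TRBV13-3 in the control, TRBV15 after anti-CD137). At or above the UMI floor the anti-CD137 share of cluster 5 was 26.8%, its median 3829.5 UMIs (3083 in paired cells), its S or G2M share 70.7%, 39.9 points above cluster 1, its paired share 46.6%, its match in cluster 1 6.08%, and its expanded share 13.1 points above that of cluster 1. With the higher cycle score above 0.1 the phase share was 23.0% and 41.1%, and with cluster 1 weighted to UMI bins the control phase difference was 3.04 points. As scores depend on depth, the phase shares listed for both libraries are not a comparison of treatments. Requiring 5 or more TRB UMIs and 3 or more TRA UMIs, the paired share was 70.6% and 13.3%, and after anti-CD137 the expanded share was 34.4%, 2.39 points above cluster 1, the Tex difference -13.9 points (-9.61 with 1 TRA and 1 TRB) and the Teff difference -7.76. With 1 TRA and 1 TRB the Teff differences were -12.7 and -5.75 points. A further TRB of at least 5 UMIs was found in 6.95% after anti-CD137. Clonotypes of at least 5 cells held 13.4% and 4.20%, and thinning the library gave 24.2% expanded in the control. A match of at least 2 cells in cluster 1 was found for 18.1% and 5.98%, and in Tex for 16.8% and 4.36%; thinned, the control match in cluster 1 was 20.3%. By TRB alone after anti-CD137 the expanded share was 69.0%, the match in cluster 1 31.5%, 26.8 points below cluster 1 (-26.8), and that in Tex 17.4%. Without the 10 largest clonotypes the control differences were -19.3 (cluster 1), -2.57 (Tex) and -15.6 points (expanded), and the Tex and Teff differences were -12.3 and -2.54 without the largest. Without the 10 largest the Teff differences were -2.95 and -2.24. The cause of these moves was not tested. Values on anti-CD137 clonotypes rest on the 33.8% of its cluster 5 cells that were paired.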
